A study of Mus musculus with 3 samples.

Results

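The genes described here are the 6 striated-type troponin genes with a row in the deposited expression table, out of 9781 gene rows used: Tnnt1, Tnnt2 and Tnnt3 (troponin T), Tnnc2 (troponin C), and Tnni1 and Tnni2 (troponin I). They were picked by name as a gene family after earlier results of these data had shown troponin transcripts in the stroma, so their levels are given as a description, without a test. The samples were dissociated mouse tissues, one male urogenital sinus (UGS) at E18.5, in the embryo the source of the prostate, and one prostate each at P14 and P35, profiled by droplet single-cell RNA sequencing that counts unique molecular identifiers (UMIs, one per captured transcript) at the 3′ end. The labels give the disease state Normal and no genotype, and the methods give a mixed background of 129S1/SvImJ and C57BL/6. There was 1 library per age, and the barcodes end in 1, 2 or 3 with no key to the samples, so the endings are called sets 1, 2 and 3, are not assigned to ages, and are described side by side.

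Troponin is the calcium switch of the thin filament in striated muscle: troponin T binds tropomyosin, troponin C binds calcium, and troponin I holds back the contraction of actin and myosin until calcium arrives. Each subunit has isoforms named for the muscle in which they are best known, cardiac, slow skeletal or fast skeletal. Smooth muscle is usually described as contracting without troponin, through phosphorylation of the myosin light chain and with caldesmon and calponin on the thin filament. The question put to the table was therefore whether the cells that hold these transcripts carry the markers of smooth muscle, of striated muscle, or of both.

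The 6 genes lie in 4 places of the mouse genome (RefSeq annotation, GRCm38.p6). Tnnt1, the slow skeletal troponin T, lies at chr7:4504569-4515975, and Tnni3, the cardiac troponin I and the only other troponin gene with a row, begins 2329 bases further on. Tnnt2, the cardiac troponin T, lies at chr1:135836315-135852268, and Tnni1, the slow skeletal troponin I, at chr1:135783033-135810989, with 25325 bases between them. Tnni2, the fast skeletal troponin I, lies at chr7:142441816-142444410 and Tnnt3, the fast skeletal troponin T, at chr7:142498771-142516213, with 54360 bases between them. Tnnc2, the fast skeletal troponin C, lies alone at chr2:164777161-164779734. Tnnc1, the troponin C of slow and cardiac muscle, was not analysed here.

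The promoters are shown for the genes whose transcripts were most numerous in smooth muscle-like cells (Tnnt1, Tnnt2 and Tnnc2) and for Tnni1, whose transcripts in set 1 lay mostly in cells with myogenic factors. Each line gives the 250 bases before a RefSeq transcript start (GRCm38.p6), 5′ to 3′ on the gene's strand. Capitals mark matches on either strand to the letters of 3 motifs: the E box CANNTG bound by myogenic factors among many others, the M-CAT element CATTCC, and the TATA box TATAAA.
Tnnt1: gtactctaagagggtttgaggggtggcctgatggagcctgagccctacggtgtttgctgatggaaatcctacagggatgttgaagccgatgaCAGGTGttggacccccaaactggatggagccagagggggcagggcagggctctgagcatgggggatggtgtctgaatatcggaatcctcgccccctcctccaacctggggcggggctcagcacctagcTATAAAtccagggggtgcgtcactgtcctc
Tnnt2: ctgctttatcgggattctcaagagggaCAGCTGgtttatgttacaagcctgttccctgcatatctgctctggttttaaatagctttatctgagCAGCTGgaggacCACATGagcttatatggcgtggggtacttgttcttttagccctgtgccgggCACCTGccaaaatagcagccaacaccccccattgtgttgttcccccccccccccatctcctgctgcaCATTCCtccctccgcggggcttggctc
Tnnc2: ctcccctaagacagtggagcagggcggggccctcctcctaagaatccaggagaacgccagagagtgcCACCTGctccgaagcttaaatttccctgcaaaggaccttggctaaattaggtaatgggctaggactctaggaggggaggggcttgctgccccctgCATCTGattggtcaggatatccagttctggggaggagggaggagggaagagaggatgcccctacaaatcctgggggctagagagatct
Tnni1: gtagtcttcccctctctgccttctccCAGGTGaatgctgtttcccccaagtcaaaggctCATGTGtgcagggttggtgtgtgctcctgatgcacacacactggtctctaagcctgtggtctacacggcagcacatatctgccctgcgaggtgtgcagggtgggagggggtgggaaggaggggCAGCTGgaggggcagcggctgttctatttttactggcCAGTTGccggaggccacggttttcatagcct
These windows lie at chr7:4515976-4516225 (minus strand), chr1:135836084-135836333 (plus), chr2:164779735-164779984 (minus) and, inside the annotated Tnni1 gene, chr1:135799171-135799420 (plus). The Tnnt1 window held 1 E box and a TATA box that begins 30 bases before the start. The Tnnt2 window held 4 E boxes and an M-CAT element 27 bases before the start, the Tnnc2 window held 2 E boxes, and the Tnni1 window held 4. Over the 32851 promoter windows of the same length in the table, 66.2% held an E box, 12.6% an M-CAT element and 12.4% a TATA box, so the E boxes do not set these windows apart. A CArG box, the element bound by serum response factor in smooth and striated muscle genes, matched in 1.47% of all windows, and a MEF2 site in 2.92%. Neither matched in any of the 6 windows found for 4 of the 6 genes, which says only that those letters are not in these stretches. RefSeq windows for Tnni2 and Tnnt3 were not used here.

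The sets held 766, 5350 and 8457 cells with medians of 19357, 1738 and 1788 UMIs per cell, so a gene could be found in single cells of set 1 at levels far below those needed in the other sets. A total of 97 cells with fewer than 200 genes in the table were left out, all from set 3. Sets 1 and 2 shared 1 barcode sequence and sets 2 and 3 shared 13. The cells were clustered without the troponins and without the striated muscle list. Clusters were then named from marker lists, the striated muscle list among them. The smooth muscle-like cluster carried 9 of the 9 smooth muscle markers with a row, among them Actg2, Des, Myl9 and Lmod1, and held 77, 1607 and 1951 cells of sets 1, 2 and 3 with medians of 16711, 1565 and 1604 UMIs. The fibroblast-like cells numbered 390, 1802 and 2674. When the sets were clustered without integration, 477 of the 766 cells of set 1 fell into a single unnamed cluster, so the class names of set 1 rest on the integration.

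In sets 2 and 3 the troponin transcripts of this tissue lay mainly in smooth muscle-like cells. As class averages Tnnt1, Tnnt2 and Tnnc2 were all several-fold above fibroblast-like and epithelium-like cells, while Tnnt3 and Tnni1 were near the counting floor. In set 2, however, 1 of the 3 fibroblast-like clusters held Tnnc2 at 151 CPM (UMIs per 1000000), against 181 CPM in smooth muscle-like cells. Smooth muscle-like cells held 67.6% of all UMIs of the 6 genes in set 2 and 76.1% in set 3. Transcripts of the myogenic factors and of titin were absent or nearly so from them, while those of Ckm, Actc1 and Casq1, also known from striated muscle, were found. In set 1 the picture was divided, since 18 cells with at least 2 UMIs of the myogenic factors held 45.3% of the troponin UMIs. Cells with at least 2 UMIs of a wider striated muscle list held 70.6% of the troponin UMIs and 78.9% of the Tnnt2 UMIs. With Actc1 taken out of that list the Tnnt2 share was 59.0%. Smooth muscle-like cells of set 1 with fewer than 2 UMIs of the whole list held Tnnt2 at 104 CPM, against 357 CPM in all of its smooth muscle-like cells.

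Of the troponin T genes, Tnnt1 and Tnnt2 were abundant and Tnnt3 was rare. Levels are given as UMIs of the gene per 1000000 UMIs of the class in that set (CPM), with exact Poisson 95% intervals that cover counting error only. Tnnt1 reached 174 CPM (154 to 197, 266 UMIs) in the smooth muscle-like cells of set 1, 373 CPM (351 to 395, 1126 UMIs) in those of set 2 and 486 CPM (463 to 509, 1728 UMIs) in those of set 3. Fibroblast-like cells held Tnnt1 at 31.1 CPM, 120.1 CPM and 56.2 CPM in sets 1, 2 and 3. The smooth muscle-like value was thus the higher in each set, with log2 ratios of 2.49 (interval 2.23 to 2.74) for set 1, 1.63 (interval 1.46 to 1.81) for set 2 and 3.11 (interval 2.91 to 3.32) for set 3. The set 1 value rested largely on 7 of the 77 cells, those with myogenic factors, without which 71 of the 266 UMIs were left and the ratio was 0.85. With only cells of at least 500 genes clustered, it was 0.82 (0.61 to 1.04) in set 2, under 2-fold, and 1.89 in set 3.

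Tnnt2, best known as the troponin T of the heart and used in the clinic as a marker of heart muscle damage, was further from fibroblast-like cells than Tnnt1. It stood at 357 CPM (327 to 388, 544 UMIs), 482 CPM (458 to 508, 1456 UMIs) and 598 CPM (573 to 624, 2126 UMIs) in the smooth muscle-like cells of sets 1, 2 and 3. In fibroblast-like cells it stood at 2.98 CPM (23 UMIs), 36.8 CPM (109 UMIs) and 11.4 CPM (45 UMIs). Its log2 ratio was 6.90 (interval 6.30 to 7.57) for set 1, 3.71 (interval 3.43 to 4.01) for set 2 and 5.71 (interval 5.28 to 6.17) for set 3, with every interval above 0. With only cells of at least 500 genes clustered, the ratios were 5.02, 2.44 and 3.87.

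Tnnt3, the fast skeletal troponin T, had too few UMIs to place. Smooth muscle-like cells held 9, 8 and 7 of its UMIs in the 3 sets and fibroblast-like cells 18, 7 and 11. Its log2 ratio in set 1 was 1.34 (0.00 to 2.57), and in sets 2 and 3 the intervals spanned 0 (0.17, -1.49 to 1.86, and -0.51, -2.11 to 0.99). At this depth, sets 2 and 3 show no detectable difference of Tnnt3 between these classes.

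Tnnc2, the calcium sensor of fast skeletal fibres, was a smooth muscle-like transcript in 2 of the 3 sets. The level in smooth muscle-like cells was 181 CPM (166 to 196, 545 UMIs) in set 2 and 216 CPM (201 to 232, 769 UMIs) in set 3, against 8.52 CPM (4.54 to 14.6, 13 UMIs) in set 1. Of those 13 UMIs in set 1, 11 came from a single cell. The log2 ratio to fibroblast-like cells was 2.69 in set 2 (interval 2.35 to 3.04) and 4.78 in set 3 (interval 4.26 to 5.34), and clustering without integration raised it to 3.87 and 5.78, while in set 3 it was 6.21 (4.98 to 7.84) with at least 500 genes per cell.

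The troponin I genes were counted far less often than Tnnt1 and Tnnt2 in sets 2 and 3. Tnni1 gave 4 UMIs in the smooth muscle-like cells of set 2 and 3 in those of set 3, against 1126 and 1728 for Tnnt1 in the same cells. Its 75 UMIs in the smooth muscle-like cells of set 1 came from 2 cells, 74 of them from 1. Tnni2 was found at 26.2 CPM (79 UMIs) in set 2, 2.28-fold over fibroblast-like cells (log2 ratio 1.19, 0.59 to 1.81, but 0.35 with at least 500 genes per cell), and at 17.7 CPM (63 UMIs) in set 3, where the interval of its log2 ratio spanned 0 (0.24, -0.30 to 0.78). In set 3 Tnni3, the cardiac troponin I, gave 58 UMIs in smooth muscle-like cells (16.3 CPM) and 7 in fibroblast-like cells, a log2 ratio of 3.19 (2.06 to 4.57). In sets 1 and 2 Tnni3 gave 6 and 15 UMIs there, with log2 ratios of 0.40 (-1.19 to 1.74) and 1.56 (0.02 to 3.37). Tnni3 begins close to Tnnt1 but on these counts was found far less often.

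**Figure D1:**
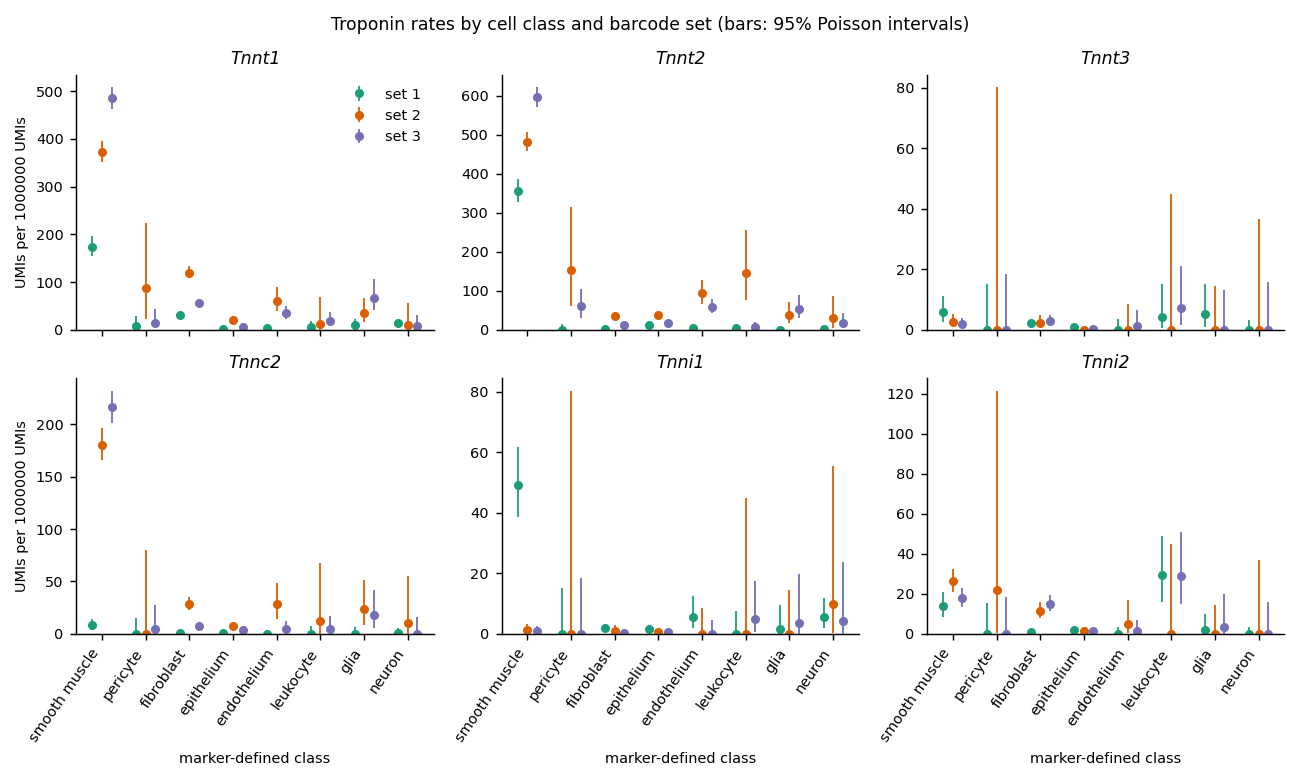
Level of each of the 6 troponins (CPM, linear axes that start at 0 and differ between genes) in each named cell class of barcode sets 1, 2 and 3, with exact Poisson 95% intervals as bars. Tnnt1 and Tnnt2 stand highest among the named classes in the smooth muscle-like cells of each set (174, 373 and 486 CPM for Tnnt1), Tnnc2 does so in sets 2 and 3 (181 and 216 CPM), and Tnni1 and Tnnt3 stay at or under 3 CPM in the smooth muscle-like cells of those sets.

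Counted over genes, a gene was taken as higher when its rate was at least 2-fold up with the interval on the same side. Where the class with the lower rate held no UMI, its count was set to 3 and no interval was required. Of all genes with at least 10 UMIs over the pair of classes, 3.82%, 6.84% and 10.6% were higher in smooth muscle-like than in fibroblast-like cells in sets 1, 2 and 3, and among the troponins 6 of 6, 4 of 5 and 3 of 5 were. In set 1, with the cells that held at least 2 myogenic factor UMIs left out, 2 of the 5 troponins with enough UMIs, Tnnt2 and Tnni2, were higher, against 3.27% of all genes, and Tnnt3 there rested on 9 UMIs even with all cells. With only cells of at least 500 genes clustered, 5 of 6, 2 of 5 and 3 of 4 troponins were higher, against 4.47%, 6.47% and 8.93% of all genes, and in set 2 Tnnt1 (0.82) and Tnni2 (0.35) were no longer counted. That setting also changed the smooth muscle-like class, which took in a cluster of 5, 217 and 244 cells led by Myod1. This cluster carried 11 of the 16 epithelium markers beside those of smooth muscle. In the main clustering none of the 6 was lower, against 8.16%, 9.49% and 14.7% of all genes. The median log2 ratio of the troponins was 3.88, 1.63 and 3.11, and that of all genes tested was -0.13, -0.14 and -0.10. Against epithelium-like cells 19%, 18.7% and 19.5% of all genes were higher, and 6 of 6, 4 of 5 and 5 of 6 troponins. None of the troponins was lower there, against 16%, 15.2% and 20.1% of all genes. These counts are a description of genes chosen with such values in view.

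Beside the troponins, 7, 9 and 9 of the 9 genes of the smooth muscle list were higher than in fibroblast-like cells, with median log2 ratios of 1.34, 2.88 and 3.70. Of the striated muscle list, 15 of 18, 3 of 5 and 3 of 5 genes with enough UMIs were higher and 1, 0 and 0 lower, the 1 being Trim63 (-1.32), and 8 of its 26 genes in set 1 and 21 in sets 2 and 3 were too rare to compare. In set 1 without the cells that held myogenic factors, 2 of 6 were higher, Ckm and Actc1. With only cells of at least 500 genes clustered, the list had 15 of 18, 2 of 5 and 1 of 4 genes higher. The thin filament partners, a list of actins, tropomyosins, calmodulin, caldesmon, calponins, leiomodins, tropomodulins and nebulins with 15 rows, had 7 of 14, 5 of 13 and 7 of 13 tested genes higher and 0, 0 and 1 lower. Actg2, the enteric smooth muscle actin, had log2 ratios of 3.80, 3.38 and 5.19. Tpm2, the beta tropomyosin to which troponin T can bind, had 2.62, 2.83 and 4.2. Tpm3, whose products include the tropomyosin of slow skeletal fibres as well as forms found outside muscle, and Tpm4 were not among the higher genes in any set (Tpm3 -0.59, -0.80 and -0.64, and Tpm4 0.54, -0.66 and -1.26). Lmod1, which nucleates actin filaments in smooth muscle, had 5.95, 2.90 and 4.03.

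By cells rather than transcripts, 45.5%, 39.6% and 48.7% of smooth muscle-like cells held a Tnnt1 UMI in sets 1, 2 and 3, and 44.2%, 40% and 39.6% held a Tnnt2 UMI. Epithelium-like cells, which are not known to use troponin and had medians of 41580, 4078 and 3452 UMIs, held Tnnt1 in 4.27%, 6.67% and 2.39% of cells and Tnnt2 in 38.5%, 13.7% and 7.6%. Once every cell was thinned to 900 UMIs, 12.0%, 24.2% and 33.7% of smooth muscle-like cells held Tnnt1, and 3.09%, 8.05% and 4.58% of fibroblast-like cells did. The thinned shares of cells with Tnnt2 were 13.3%, 30.3% and 29.7% against 0%, 2.0% and 0.828%. In epithelium-like cells the thinned shares were 0%, 1.36% and 0.605% for Tnnt1 and 1.72%, 2.57% and 1.36% for Tnnt2, so the 38.5% of set 1 went with the depth of its cells. Thinning left out 7, 342 and 693 cells of the 3 sets that were shallower than 900 UMIs. Smooth muscle-like cells were above fibroblast-like and epithelium-like cells by thinned share as they were by CPM.

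The other named cell classes held Tnnt1 and Tnnt2 at uneven levels, all under those of smooth muscle-like cells of the same set. Tnnt2 in epithelium-like cells stood at 12.8 CPM, 37.8 CPM and 17.5 CPM, and Tnnt1 at 1.44 CPM, 20.5 CPM and 5.77 CPM. Endothelium-like cells held Tnnt2 at 3.8 CPM, 93.4 CPM and 59.2 CPM. In the 25 leukocyte-like cells of set 2 it stood at 146 CPM (75.6 to 256, 12 UMIs in 4 cells), against 4.17 CPM and 7.26 CPM in those of sets 1 and 3. How much of this came from free RNA in the droplets was not tested, and no treatment of free RNA is stated in the sources used here.

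Pericyte-like cells, the contractile cells around small vessels, carried 8 of the 9 smooth muscle markers but few troponin transcripts. They numbered 10, 29 and 128 in the 3 sets. Tnnt2 gave 0, 7 and 12 UMIs in them (153 CPM, 61.4 to 314, in set 2 and 60.2 CPM, 31.1 to 105, in set 3), and Tnnt1 gave 2, 4 and 3. In set 3 the intervals of both genes lay below those of smooth muscle-like cells (573 to 624 CPM for Tnnt2 and 463 to 509 CPM for Tnnt1). Tnnc2 gave 1 UMI in the 128 pericyte-like cells of set 3 and none in the others.

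Tnni2 was also found in leukocyte-like cells. Leukocyte-like cells held it at 29.2 CPM (16.0 to 49.0, 14 UMIs) in set 1 and 29.0 CPM (15.0 to 50.7, 12 UMIs) in set 3, against 13.8 CPM and 17.7 CPM in smooth muscle-like cells. The log2 ratios of smooth muscle-like over leukocyte-like cells, -1.08 (-2.13 to 0.00) and -0.71 (-1.62 to 0.31), had intervals that included 0. In set 2 the 25 leukocyte-like cells held no Tnni2 UMI. Leukocyte-like cells held Tnnt1 at 6.26 CPM, 12.2 CPM and 19.4 CPM, far under the smooth muscle-like level, and 2, 0 and 3 UMIs of Tnnt3.

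Within the fibroblast-like cells of sets 2 and 3 Tnnc2 transcripts were concentrated in 1 of the 3 clusters. That cluster held Tnnc2 at 151 CPM (117 to 192, 66 UMIs) in set 2, an interval that overlapped the smooth muscle-like one (166 to 196). In set 3 it held 90.0 CPM (18 UMIs), while in either set the other 2 fibroblast-like clusters held 6.92 CPM or less. Its Tnnt1 level was 215 CPM (174 to 263) in set 2, against 125 and 87.8 CPM in the others. In set 3 Tnnt1 stood at 115 CPM (72.9 to 172) in it, against 35.8 and 72.0 CPM. In set 2 it held Tnnt2 at 107 CPM, against 20.4 CPM and 27.7 CPM in the others, and in set 3 it held 4 Tnnt2 UMIs, with an interval (5.45 to 51.2 CPM) that overlapped those of the others. It also held 208 of the 390 fibroblast-like cells of set 1, with 3 Tnnc2 UMIs (0.773 CPM). Whether doublets of fibroblast and smooth muscle cells lie in it was not tested.

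Striated muscle cells were sought by 2 measures. The first was the striated muscle list, 26 genes with a row that hold no troponin (Ttn, Neb, Ckm, Mylpf, Actc1, the myogenic factors and others). A cell was set aside when it held at least 2 UMIs of the list. The cut was the same at every depth, and the cells of set 1 were the deepest by median. The other 15 of the 41 genes listed, among them Acta1, Myh1, Myh3, Myh7, Actn2 and Actn3, were not analysed here. The second, added after seeing the data, was at least 2 UMIs of the 5 myogenic factors Myod1, Myog, Myf5, Myf6 and Pax7, the transcription factors that commit cells to skeletal muscle. By the list, 107, 71 and 60 cells of sets 1, 2 and 3 were set aside, and they held 70.6%, 4.66% and 2.40% of the UMIs of the 6 troponins, beside 20.4%, 2.55% and 2.72% of all UMIs. These cells were not all of muscle classes: 26 of the 107 in set 1 were fibroblast-like and 19 neuron-like, and of the 60 in set 3, 12 were neuron-like, 10 epithelium-like and 13 of unnamed cluster 10. By the myogenic factors, 18, 1 and 0 cells were, and they held 45.3%, 0.105% and 0% of the troponin UMIs.

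In sets 2 and 3 smooth muscle-like cells held troponin T and C without transcripts of the myogenic factors. Not 1 UMI of Myod1, Myog, Myf5, Myf6 or Pax7 was found in the 1607 and 1951 smooth muscle-like cells, and Ttn, the giant spring protein of the sarcomere, gave 0 and 1 UMIs. The striated-list genes with at least 10 UMIs there in either set were Ckm, the muscle creatine kinase (71 and 55 UMIs, 23.5 and 15.5 CPM), Casq1, a calcium store protein (48 and 10 UMIs), Actc1, the cardiac actin (101 and 12 UMIs), Trim63, a muscle ubiquitin ligase (19 and 23 UMIs), Mybpc1, a myosin-binding protein (3 and 14 UMIs), and Hrc, a calcium-binding protein (10 and 1 UMIs). For Ckm these were 71 of 81 UMIs in set 2 and 55 of 80 in set 3. With the cells that held at least 2 striated-list UMIs left out, Tnnt1 stood at 373 CPM and 488 CPM and Tnnt2 at 474 CPM and 594 CPM in sets 2 and 3. The level with those cells in place was 373 CPM and 486 CPM for Tnnt1, and 482 CPM and 598 CPM for Tnnt2.

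**Figure D2:**
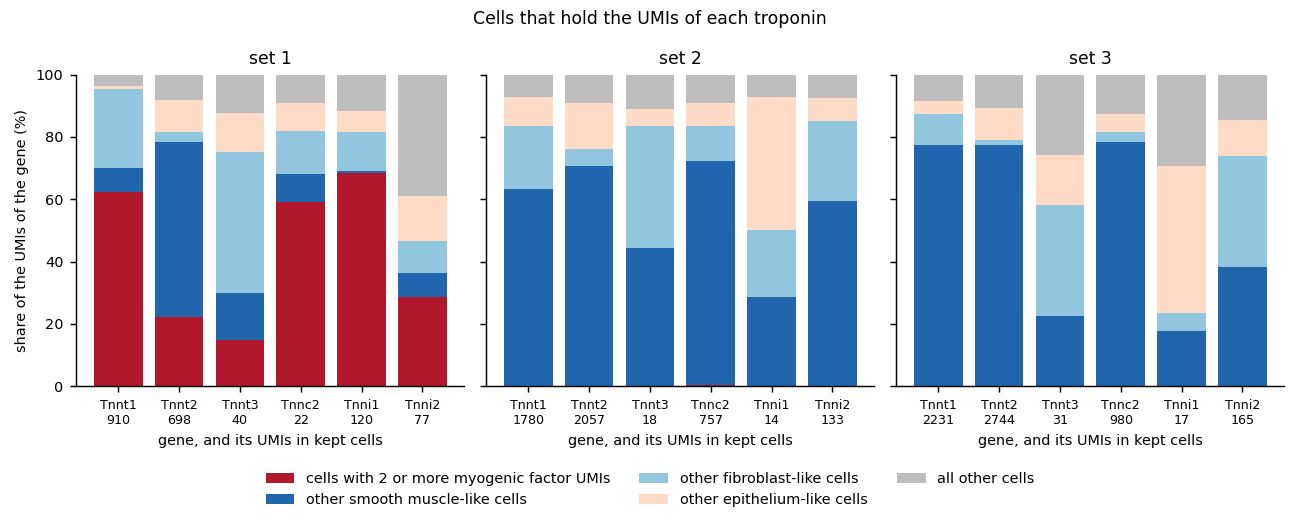
Share (%) of the UMIs of each troponin that lay in cells with at least 2 myogenic factor UMIs, in other smooth muscle-like, fibroblast-like and epithelium-like cells, and in all other cells, by barcode set, with the UMIs of the gene under its name. Myogenic cells held 62.2% of Tnnt1 and 68.3% of Tnni1 in set 1, and other smooth muscle-like cells held 77.5% of Tnnt1 and of Tnnt2 in set 3.

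Set 1 held both kinds of cell. Its 18 cells with myogenic factors lay in unnamed cluster 7 of the main clustering (10 cells), the smooth muscle-like cluster (7 cells) and 1 fibroblast-like cluster (1 cell). All 18 held Tnnt1, with between 6 and 79 UMIs per cell and 566 in all, or 62.2% of the Tnnt1 UMIs of the set. Tnnt2 was found in only 6 of them, with 90, 56 and 7 UMIs in 3 cells and 1 UMI in each of the other 3. The cell with 56 Tnnt2 UMIs also held 84 UMIs of Actg2 and 69 of Tpm2, beside 36 of the myogenic factors. Actg2 gave 16 UMIs in another of the 18 cells and 3 or fewer in the rest.

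A single cell among these 18 carried the full set of troponins. It held 70 UMIs of Tnnt1, 90 of Tnnt2, 3 of Tnnt3, 11 of Tnnc2, 74 of Tnni1 and 14 of Tnni2, beside 333 UMIs of the myogenic factors and 1195 of the striated list, among 32703 UMIs. It held 61.7% of the Tnni1 UMIs and 50% of the Tnnc2 UMIs of the set. The set 1 values of Tnni1 and Tnnc2 in smooth muscle-like cells are therefore values of this cell. It lay in the smooth muscle-like cluster, which was formed without the striated list.

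Leaving out the 18 cells changed the genes differently. In the 70 remaining smooth muscle-like cells of set 1, Tnnt1 stood at 54.2 CPM (42.3 to 68.3), against 174 CPM in all 77, with a log2 ratio to fibroblast-like cells of 0.85 (0.44 to 1.24) in place of 2.49. Tnnt2 stood at 298 CPM (269 to 329) with a log2 ratio of 6.70 (6.08 to 7.39), beside 357 CPM and 6.90 with all cells. It was found in 31 of the 70 cells, and 10 of them held 293 of its 391 UMIs. Tnni1 went from 75 UMIs to 1, and Tnnc2 from 13 to 2. In set 1, then, the larger part of the Tnnt1, Tnnc2 and Tnni1 UMIs (62.2%, 59.1% and 68.3%) lay in cells with myogenic factors, and 56.0% of the Tnnt2 UMIs lay in smooth muscle-like cells without them. By the wider list, 551 of the set's 698 Tnnt2 UMIs (78.9%) lay in the cells set aside, and 412 (59.0%) did with Actc1 taken out of the list. In the 45 smooth muscle-like cells of set 1 with fewer than 2 UMIs of the whole striated list, Tnnt2 stood at 104 CPM (77.3 to 136, 51 UMIs) and Tnnt1 at 85.5 CPM (61.6 to 116), with log2 ratios of 5.06 (4.32 to 5.86) and 1.42 (0.91 to 1.90).

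**Figure D3:**
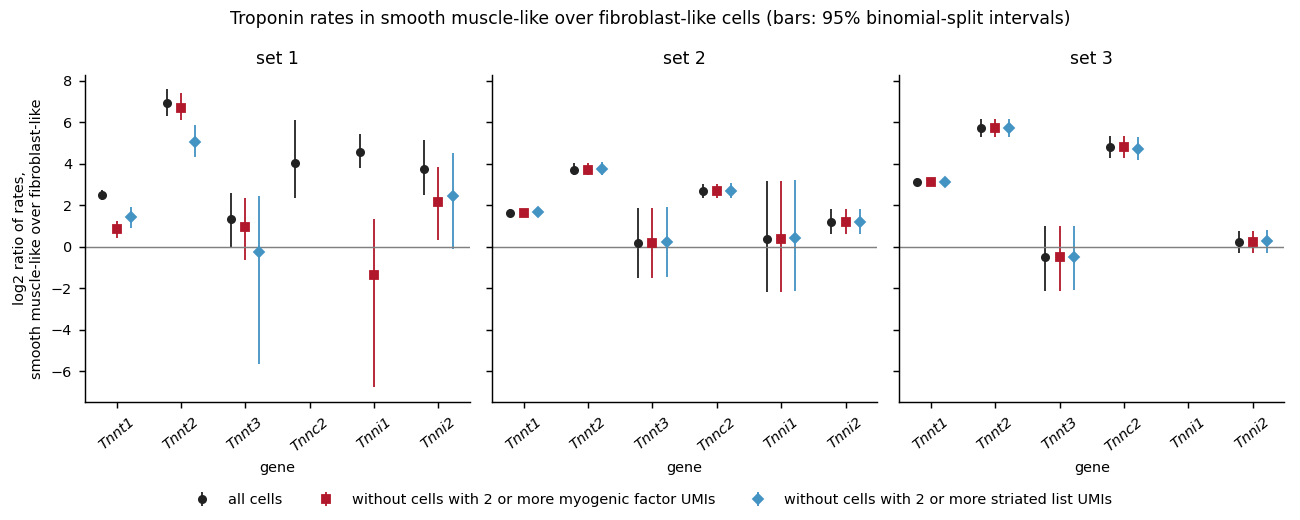
Log2 ratio of the level in smooth muscle-like over fibroblast-like cells for each troponin in each barcode set, with exact 95% counting intervals as bars. Circles use all cells, squares leave out cells with at least 2 myogenic factor UMIs and diamonds leave out cells with at least 2 striated list UMIs, and no point is drawn where there were too few UMIs. In set 1 Tnnt1 goes from 2.49 to 0.85 and 1.42 while Tnnt2 goes from 6.90 to 6.70 and 5.06, and in sets 2 and 3 the 3 symbols of a gene lie together.

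**Figure D4:**
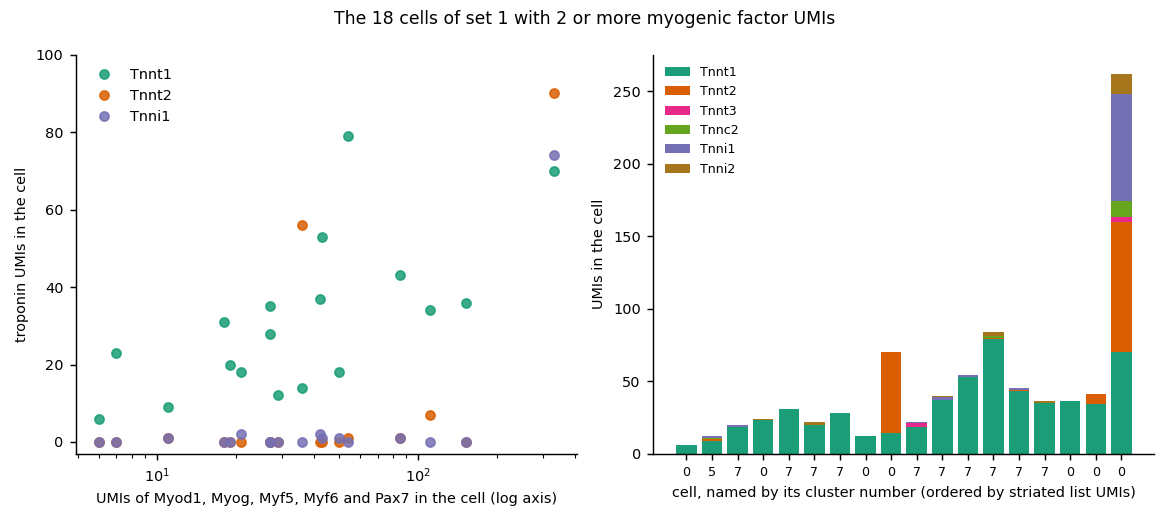
The 18 cells of barcode set 1 that held at least 2 UMIs of the myogenic factors. The left panel plots UMIs of Tnnt1, Tnnt2 and Tnni1 in each cell against the cell's myogenic factor UMIs (logarithmic axis), and the right panel stacks the UMIs of all 6 troponins per cell, ordered by striated list UMIs and named by cluster number. Every cell holds Tnnt1 (6 to 79 UMIs), 6 cells hold Tnnt2, and the cell with 333 myogenic factor UMIs holds all 6 troponins.

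Actc1 divided the 70 smooth muscle-like cells without myogenic factors further. Cardiac actin is used by the heart and by developing skeletal muscle, and 24 of the 70 cells held at least 1 of its UMIs. Those 24 cells held Tnnt2 at 432 CPM (347 UMIs, found in 22 cells), and the 46 cells without Actc1 held it at 86.7 CPM (44 UMIs, found in 9 cells). The cells with Actc1 were deeper, with medians of 29018 and 9865.5 UMIs per cell, so these counts of cells were taken at different depths. Tnnt1 ran the other way, at 34.9 CPM with Actc1 and 84.7 CPM without. Actg2 stood at 1548 CPM in the cells with Actc1 and 847 CPM in those without, so the cells with Actc1 were not poor in smooth muscle actin. In set 2, 38 smooth muscle-like cells held Actc1, with Tnnt2 at 1136 CPM against 465 CPM in the other 1569. In set 3 only 4 did, with 8 Tnnt2 UMIs among them. This split was chosen after its values were seen.

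**Figure D5:**
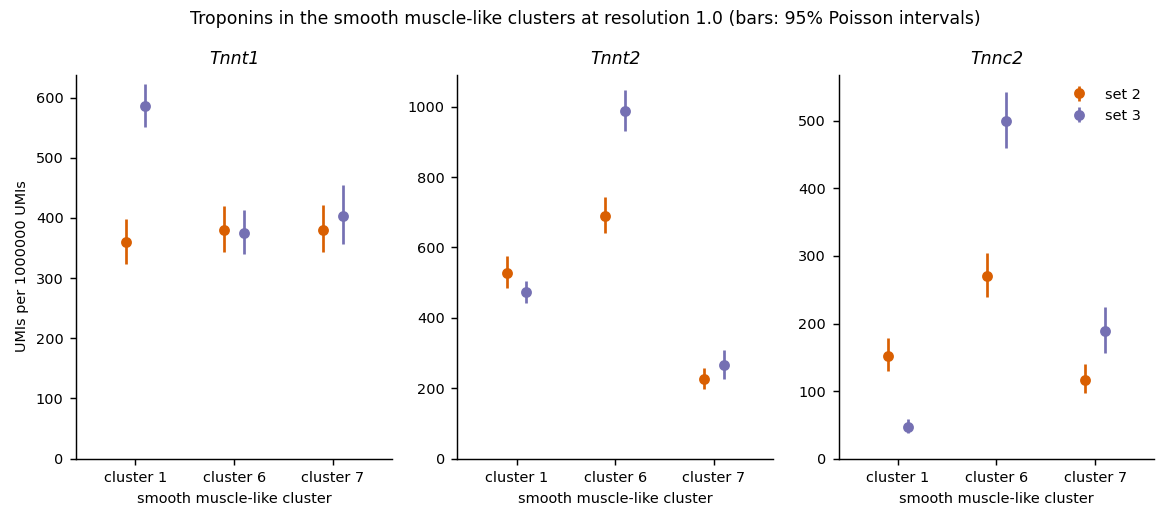
Levels (CPM, exact Poisson 95% intervals as bars) of Tnnt1, Tnnt2 and Tnnc2 in the smooth muscle-like clusters 1, 6 and 7 found at clustering resolution 1.0, for barcode sets 2 and 3. In set 3, Tnnc2 stands at 47.3, 500.4 and 189 CPM in clusters 1, 6 and 7, and Tnnt1 at 587, 375 and 403 CPM.

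The 3 abundant troponins did not share 1 distribution within smooth muscle-like cells. At a finer clustering (resolution 1.0 in place of 0.5) they split into cluster 1 (744 and 1259 cells in sets 2 and 3), cluster 6 (543 and 474 cells) and cluster 7 (314 and 215 cells). Tnnc2 was higher in cluster 6 than in cluster 1 in both sets, with log2 ratios of 0.82 in set 2 (interval 0.53 to 1.12) and 3.40 in set 3 (interval 3.07 to 3.75). Tnnt2 was also higher there (0.39, 0.22 to 0.55, and 1.06, 0.93 to 1.20). Tnnt1 was not: its ratio was 0.08 in set 2 (interval -0.13 to 0.29) and -0.65 in set 3 (interval -0.81 to -0.48). Actg2 went with Tnnc2 and Tnnt2, at 0.87 and 1.51. So did the other genes of the smooth muscle list, such as Tpm2 (0.51 and 1.13) and Lmod1 (0.79 and 0.82). Cluster 7 was poor in Tnnt2, at 227 CPM in set 2 and 265 CPM in set 3, against 528 and 473 CPM in cluster 1 and 691 and 989 CPM in cluster 6. Its Tnnt1 level was 380.4 and 403 CPM, and over cluster 1 the log2 ratio for set 2 was 0.08 (interval -0.13 to 0.29) and for set 3 was -0.54 (interval -0.74 to -0.34). The log2 ratios of Tnnt2 in cluster 7 over cluster 1 were -1.22 for set 2 (interval -1.45 to -0.99) and -0.83 for set 3 (interval -1.08 to -0.60).

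The counts of cells with a pair of troponins set Tnnt1 apart from Tnnt2 in set 3 but not in set 2, and no interval was computed for them. In set 3, 108 smooth muscle-like cells held both Tnnt1 and Tnnc2, which was 0.820 of the number computed from their separate shares within 10 bins of depth. Cells with both Tnnt2 and Tnnc2 numbered 138, or 1.18 times the computed number. In set 2 the ratios were 1.16 for Tnnt1 with Tnnc2 and also 1.16 for Tnnt2 with Tnnc2. Tnnt1 and Tnnt2 were found together in 276 and 400 cells, at 1.07 and 1.04 of the computed number.

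Across the 23 points formed by a class in a set with at least 30 cells, the genes most like each troponin were named by Pearson correlation of log2(CPM + 5). The points share libraries and depth, so the correlations are a description. Tnnt1 was most like Fgf7 (r = 0.949), a growth factor made by prostate stroma, then Hhip (0.913), which binds hedgehog ligands, and Actg2 (0.904). Tnnt2 was most like Hspb6 (0.924), a small heat shock protein of muscle, Lmod1 (0.916) and Dmpk (0.911). Tnnc2 was most like Irs4 (0.915), Chrdl1 (0.908) and Rasd2 (0.899).

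The troponin I genes had other neighbours in this ranking. Tnni1 was most like Myog (0.881), Ttn (0.879) and Myf5 (0.879), all genes of skeletal muscle. In the smooth muscle-like cells of set 1, 1 of these points, 74 of the 75 Tnni1 UMIs and 293 of the 360 Myog UMIs came from the same cell. Tnni2 was most like Tnnt3 (0.792), and Mmp9 (0.761), a protease best known from leukocytes, came among its 5 most alike genes. Among the members themselves Tnnt1, Tnnt2 and Tnnc2 were the closest (0.879 for Tnnt1 with Tnnc2, 0.863 for Tnnt2 with Tnnc2 and 0.850 for Tnnt1 with Tnnt2), and Tnni1 was further from Tnnt1 and Tnnt2 (0.199 and 0.163) than from Tnnt3 (0.400).

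Genes near one another were alike in some cases and not in others. Tnni3, the neighbour of Tnnt1, was higher in smooth muscle-like cells of sets 2 and 3, as Tnnt1 was, and Lsp1 (0.801) and Tnni2 (0.792) were among the 5 genes most like Tnnt3. Csrp1, a smooth muscle marker upstream of Tnni1, had log2 ratios of smooth muscle-like over fibroblast-like cells of 1.34, 1.82 and 3.19. Tnni1, between Csrp1 and Tnnt2, gave only 4 and 3 UMIs in the smooth muscle-like cells of sets 2 and 3. Lsp1, which lies between Tnni2 and Tnnt3, had log2 ratios of 0.57, -0.40 and -0.69. Mrpl23, beyond Tnnt3, had 0.54, 1.11 and 1.22.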

How the data were processed

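Tissues were dissociated with collagenase and TrypLE and run on the 10x Genomics Chromium 3′ system (the labels give v3 chemistry, the methods v2), and per the labels reads were processed with Cell Ranger 3.1.0 against mm10. The deposited table holds, per gene and cell, the natural log of 1 + 10000 × UMIs of the gene over the cell's total, scaled by the authors, with values from 0 to 7.94. Only part of that table, rows of chromosomes 1 to 7, 10 and X and some of 8, was used here. It held 9784 rows and 14573 cells, from which 1 incomplete row and 2 rows sharing a name were left out. From the values above 0 (11120281) each cell's total and whole UMI counts were recovered: 100% of values came within 0.05 of a whole number, and the largest distance was 9.4e-07. The rows used held 49.4% to 52.7% of each set's UMIs.

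Cells with at least 200 genes were clustered in Seurat 5.3.0 (R 4.3.3) after integration of the 3 barcode sets (20 dimensions, 2000 variable features, 30 components, cell cycle scores regressed out, resolution 0.5, numerical library settings held fixed because they shift cluster borders), without the troponin and striated muscle genes. A cluster could be named when it carried at least 3 markers of a list, each in at least 10% of its cells and 2-fold over the median cluster. It was left unnamed when another list, the striated muscle list included, held more of the 10 genes highest in it over the other cells. The same was done when 2 lists were carried and neither held any of those genes. Scrublet (scanpy 1.11.5) put 3, 0 and 0 cells over its threshold, and none was removed. UMIs were summed per set and class. CPM carry exact Poisson intervals, shares exact Clopper-Pearson intervals and ratios exact binomial intervals (95%, scipy 1.17.1), all for counting error only. No ratio was given where both sums were at or under the floor of 3 UMIs, and genes were counted from 10 UMIs over both classes upward. With 1 library per sample there was no replicate and no p-value. The ratio step was run on simulated counts with 300 cells on each side and 200 genes changed 4-fold among 9781. At the depths of sets 1, 2 and 3 it called 100%, 95.2% and 89.7% of the changed genes tested the right way. It also called 0.705%, 1.64% and 1.63% of unchanged genes. The smooth muscle-like class of set 1 held 77 cells. How often genes are called with so few cells, or with UMIs held mostly by a few cells, was not tested.

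The 6 troponins and all marker lists were chosen with earlier results of these data known. Genes that could be named were the troponins, the genes of the smooth muscle, striated muscle and thin filament lists, the 5 genes most like each troponin, and the nearest genes with a row. Positions and promoters came from RefSeq (GRCm38.p6), and 9273 of the 9781 names (94.8%) matched, with all 6 troponins among them.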

Additional observations from a re-analysis of the deposited data

Results flagged for a closer look

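Troponin transcripts were also counted in the 2 clusters that no comparison used because neither was given a name. Both were picked out for holding more than the 3 UMIs that a count of 0 allows. Unnamed cluster 7 of the main clustering held 427, 257 and 451 UMIs of the 6 troponins in sets 1, 2 and 3, in 12, 139 and 195 cells. It carried 9 of the 9 smooth muscle markers and 10 of the 16 epithelium markers, was led by Msc, Myf5, Ttn, Myod1 and Neb, and had medians of 38490.5, 3910 and 4179 UMIs per cell. In set 1, 382 of its 427 troponin UMIs lay in 10 cells with myogenic factors. In sets 2 and 3, 1 of its 139 cells and 0 of its 195 cells held at least 2 myogenic factor UMIs, and they held 5 and 0 of the troponin UMIs. Myf5 gave no UMI in the cluster in those sets, and Myod1 gave 5 and 0. In sets 2 and 3 it held Tnnt1 at 134 and 138 CPM, Tnnt2 at 164 and 219 CPM and Tnnc2 at 75.3 and 120.3 CPM, all under the smooth muscle-like level. Unnamed cluster 10 held 24, 8 and 20 UMIs of the 6 troponins in 31, 40 and 99 cells. Of the cells of unnamed cluster 7, 2 of 12, 39 of 139 and 145 of 195 were among the 5% of all cells with the highest doublet scores. When those were removed before clustering, the others fell into named clusters, with 6, 85 and 40 of them epithelium-like, and no cluster of this kind was found. In set 1 the remaining 4 were fibroblast-like, so this setting placed cells with myogenic factors in epithelium-like or fibroblast-like clusters. Of unnamed cluster 10, 0, 2 and 0 cells were among those 5%. The part that free RNA plays in these counts was not tested.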

How the results depend on the processing

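No paired analysis was possible because each age had 1 library and the barcode endings have no key to the samples. The log2 ratio of the summed troponin rate, smooth muscle-like over fibroblast-like cells, stayed above 0 in every setting that gave a value. For set 1 (3.92) it was 3.66 with at least 500 genes per cell, 3.44 with the 5% highest doublet scores removed, 3.01 with cells thinned to 900 UMIs, and, with cells left out, 2.28 for striated list UMIs, 2.63 for that list other than Actc1 and 3.23 for myogenic factor UMIs. Clustering without integration left too few UMIs for a ratio in set 1. For set 2 (2.42) it was 1.54 with at least 500 genes, 2.73 thinned and 2.21 with cells classed one by one. For set 3 (3.82) it was 2.95 with at least 500 genes. The share of troponin UMIs in cells with striated muscle UMIs depended on the definition. In set 1 (70.6%) it was 62.5% without Actc1 and 45.3% by myogenic factors. In set 2 (4.66%) it was 1.45% at 3 or more list UMIs, 2.40% without Actc1 and 0.105% by myogenic factors, and in set 3 (2.40%) it was 0.876% at 3 or more and 0% by myogenic factors. The settings by myogenic factors and without Actc1 were added after seeing the data. Among ratios whose interval lay above 0, the sign changed in 3 values, all of set 1: Tnnt3 went to -0.24 without cells holding striated list UMIs, and Tnni1 to -1.36 without myogenic cells and -0.76 without cells holding striated list UMIs other than Actc1, as few UMIs were left. Among ratios whose interval spanned 0 it changed in 5, down to -1.18 for Tnnt3 in set 2 when thinned, and to 0.51 for Tnnt3 and -0.81 for Tnni2 in set 3 with at least 500 genes. With at least 500 genes per cell Tnnt1 was also 0.82 in set 2 (under 2-fold) and 1.89 in set 3, Tnnt2 5.02, 2.44 and 3.87 in sets 1, 2 and 3, Tnni2 0.35 in set 2 and Tnnc2 6.21 in set 3. The make-up of the smooth muscle-like class changed under that setting as well. Without integration Tnnc2 was 3.87 in set 2 and 5.78 in set 3. Of 138 values for single troponins, 104 stayed within their counting interval, and the 3 sign changes of set 1 and 31 others did not. The troponins called higher went from 6 to 2 in set 1 without myogenic cells and from 4 to 2 in set 2 with at least 500 genes, and the striated list from 15 to 2 in set 1 and from 3 to 1 in set 3 under the same 2 settings. Depth limits Tnnt3, Tnni1 and the pericyte-like cells, where few UMIs were counted.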
